A study of Caenorhabditis elegans with 2 samples.

Results

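The genes described here are those named for proteins of the cytosolic ribosome of Caenorhabditis elegans. They were taken as every protein-coding gene of the nuclear chromosomes whose symbol in the Ensembl annotation begins with rpl- (large subunit) or rps- (small subunit), which gave 78 of 19973 protein-coding genes, 47 of the large and 31 of the small subunit. The rule itself uses names and no measured value. The measurements are lists of intervals from ChIP-seq, which precipitates fragmented chromatin through an antibody and sequences the recovered DNA, so that bound places appear as intervals, each with a summit. The precipitated protein was F57C9.4, fused at its C terminus to a GFP-FLAG tag and precipitated with an antibody against GFP. The worms were whole young adults of mixed sex from strain OP550, with the genotype unc-119(tm4063) III; wgIs550, where wgIs550 is the inserted transgene. They were collected 66 h after synchronisation as starved L1 larvae, and chromatin was sheared by sonication. All worms formed 1 group, sampled as biological replicates 5 and 6 (2 in all), with no second genotype or condition. The tagged protein came from a transgene in an unc-119 mutant strain, and the samples were whole animals, so no tissue can be assigned to any summit. Replicate lists were compared only with each other, and no comparison with worms lacking the tag was made here.

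Ribosomal protein genes are among the most highly expressed genes of growing cells, and their products assemble with ribosomal RNA in near equal amounts. In C. elegans many of them lie close to another gene, some in operons, where several genes share 1 precursor transcript, and some in head-to-head pairs, where neighbours on opposite strands are transcribed away from a common stretch of DNA. Several also carry small nucleolar RNA (snoRNA) genes in their introns; snoRNAs guide the chemical modification of ribosomal RNA.

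RefSeq gave a product name for all 78 genes, and 75 of these names refer to the ribosome. The products of the other 3 are named after a domain: a Plectin/eS10 domain for rps-10, a ubiquitin-like domain for rps-30 and a NAM-associated domain for rpl-42. The name eL42 belongs to the product of rpl-36.A, so no product name places rpl-42 in the ribosome. The product of rpl-24.2 is named a putative ribosome biogenesis protein, RLP24, which in yeast takes the place of a ribosomal protein during assembly of the large subunit. This name is counted among the 75. RefSeq uses another symbol for 17 of the genes, among them rpl-20, which it calls rpl-18A, and rps-1, which it calls rps-3A. The Ensembl symbols are used throughout.

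The authors' final list came from the IDR (irreproducible discovery rate) step, which uses how well the ranks of peaks in the replicates match. A summit of this IDR list lay within 500 bp of an annotated transcript start of 10 of the 78 ribosomal protein genes. That is 12.8% of them, against 0.941% of all protein-coding genes (188 of 19973). Each of the 10 had a peak of its own, and together they made up 2.78% of the 360 IDR peaks. Within 1000 bp the count was 11 of 78 (14.1%), against 1.37% of all protein-coding genes (273 of 19973). The 10 were rpl-3, rpl-7A, rpl-12, rpl-15, rpl-20, rpl-22, rpl-35, rps-1, rps-19 and rps-26, and the wider window added rpl-27. In all 10 the summit lay upstream of the gene, against 139 of 188 (73.9%) among all protein-coding genes with an IDR summit within 500 bp. All 360 IDR peaks are the 360 intervals with the highest signal in the pooled list, so the values of the pooled list serve for both. A place in the IDR list therefore does not show that a single peak ranked alike in both replicates.

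The DNA under 6 of the peaks is shown first, because several of these peaks share short sequences. They are not those with the highest signal, since rps-19 (rank 59) and rps-26 (rank 61) are left out. Each line gives the reference sequence (RefSeq, build WBcel235, which is ce11) from 50 bp before to 50 bp after the pooled summit, read 5′ to 3′ along the strand of the ribosomal protein gene. Capitals mark 3 strings of 6 bases on either strand, which were chosen after the sequences had been seen. The first is TACGGT, read as ACCGTA on the opposite strand. The second is AGTGTA, read there as TACACT. The third is AGCGTG, read there as CACGCT. The regions are chrIII:3867532-3867632 (plus strand) for rpl-3, chrIV:4750014-4750114 (minus) for rpl-20, chrIV:654880-654980 (minus) for rpl-15, chrIII:7854622-7854722 (plus) for rpl-35, chrIII:4475586-4475686 (plus) for rps-1 and chrIV:4390606-4390706 (minus) for rpl-7A.
rpl-3: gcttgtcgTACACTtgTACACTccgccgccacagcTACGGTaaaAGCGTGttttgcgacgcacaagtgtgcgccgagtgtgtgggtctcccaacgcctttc
rpl-20: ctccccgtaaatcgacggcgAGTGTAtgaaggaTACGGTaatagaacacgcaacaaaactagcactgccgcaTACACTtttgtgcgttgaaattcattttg
rpl-15: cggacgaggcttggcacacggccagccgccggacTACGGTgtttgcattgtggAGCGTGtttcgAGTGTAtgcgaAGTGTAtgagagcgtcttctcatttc
rpl-35: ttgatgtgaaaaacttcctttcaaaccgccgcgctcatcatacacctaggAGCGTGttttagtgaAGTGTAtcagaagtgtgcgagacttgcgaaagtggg
rps-1: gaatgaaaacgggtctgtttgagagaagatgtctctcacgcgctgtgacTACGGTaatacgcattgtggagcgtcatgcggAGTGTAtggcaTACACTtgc
rpl-7A: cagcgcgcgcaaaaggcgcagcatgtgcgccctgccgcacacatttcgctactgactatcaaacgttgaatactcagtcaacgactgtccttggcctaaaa
The windows of rpl-3, rpl-20, rpl-15 and rps-1 each hold both TACGGT and AGTGTA on one strand or the other, rpl-35 holds AGTGTA and AGCGTG, and rpl-7A holds none of the 3. Of the windows not shown, rpl-22 holds TACGGT and rpl-27 holds AGCGTG. Those of rpl-12, rps-19 and rps-26 hold none of the 3.

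Among the large subunit genes, rpl-3 had the highest signal. The gene rpl-3 (WBGene00004414, chrIII:3867854-3869587, plus strand) encodes uL3, a core protein of the subunit near the peptidyl transferase centre. Positions are on ce11. The rpl-3 peak had a signal of 249.7 in the pooled list (rank 3 of 30000), 164 in replicate 5 (rank 3) and 84.1 in replicate 6 (rank 5). Its summit lay 272 bp upstream of the start by the pooled list, 266 bp by replicate 5 and 265 bp by replicate 6, with no other coding start within 1000 bp. The signal is the authors' own value for each interval, and its scale differs between lists (the pooled median is 25.8, that of replicate 5 is 18.5 and that of replicate 6 is 12.3), so ranks are given for comparing lists.

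The next peaks by signal were those of rpl-20 and rpl-15. The gene rpl-20 (WBGene00004432, chrIV:4749123-4749778, minus strand) encodes eL20. It had a signal of 159.6 in the pooled list (rank 11), 85.6 in replicate 5 (rank 26) and 67.8 in replicate 6 (rank 15), with the pooled summit 286 bp upstream. The gene rpl-15 (WBGene00004427, chrIV:653480-654576, minus strand) encodes eL15. It had 141.8 in the pooled list (rank 20), 89.5 in replicate 5 (rank 20) and 52.4 in replicate 6 (rank 45), with the pooled summit 354 bp upstream. Both peaks ranked in the top 45 of each list. The gene rpl-35 (WBGene00004449, chrIII:7855134-7855646, plus strand) encodes uL29, a protein at the exit of the tunnel through which the new protein leaves. It had 112 in the pooled list (rank 58), 59.0 in replicate 5 (rank 118) and 51.7 in replicate 6 (rank 49), with the pooled summit 462 bp upstream.

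Signals of the other large subunit genes with an IDR peak were lower. The gene rpl-7A (WBGene00004419, chrIV:4389143-4390590, minus strand) encodes eL8. It had 87.5 in the pooled list (rank 144), 52.3 in replicate 5 (rank 204) and 31.7 in replicate 6 (rank 349). Its summit lay 66 bp upstream of the start, in the space it shares with set-21. rpl-12 (WBGene00004424, chrIV:13239587-13240651, minus strand) encodes uL11, a protein at the base of the stalk where translation factors bind. It had 68.9 in the pooled list (rank 327), 37.0 in replicate 5 (rank 874) and 26.5 in replicate 6 (rank 750). Its summit was the closest to a start, 10 bp upstream by the pooled list, 2 bp upstream by replicate 5 and 9 bp downstream by replicate 6. The gene rpl-22 (WBGene00004434, chrII:5055616-5056214, plus strand) encodes eL22. It had 68.2 in the pooled list (rank 339), 43.1 in replicate 5 (rank 451) and 28.3 in replicate 6 (rank 552), with the pooled summit 264 bp upstream. The intervals of rpl-12 and rpl-22 were outside the 360 best of both replicate lists.

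In the small subunit, 3 genes had an IDR peak. The gene rps-19 (WBGene00004488, chrI:9625049-9625796, minus strand) encodes eS19, a protein whose human counterpart is mutated in Diamond-Blackfan anaemia. It had 111.5 in the pooled list (rank 59), 79.8 in replicate 5 (rank 34) and 28.3 in replicate 6 (rank 553), with the pooled summit 247 bp upstream. It stood far higher in replicate 5 than in replicate 6. rps-26 (WBGene00004495, chrI:14759930-14760626, plus strand) encodes eS26, which lies where messenger RNA leaves the subunit. It had 110.7 in the pooled list (rank 61), 62.7 in replicate 5 (rank 92) and 50.1 in replicate 6 (rank 61), with the summit 468 bp upstream. rps-1 (WBGene00004470, chrIII:4475918-4476876, plus strand) encodes eS1. It had 73.3 in the pooled list (rank 257), 41.2 in replicate 5 (rank 555) and 32.9 in replicate 6 (rank 301), with the summit 282 bp upstream and 21 bp from the start of the non-coding RNA gene F56F3.11.

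The remaining IDR peak within 1000 bp was that near rpl-27 (WBGene00004441, chrI:1834883-1835438, plus strand), which encodes eL27. Its summit was 704 bp downstream of the rpl-27 start and past the end of the gene, but 74 bp upstream of egl-30, which encodes a G protein alpha subunit. The signal was 75.8 in the pooled list (rank 232) and 49.4 in replicate 6 (rank 66). The replicate 5 interval holding that summit had 30.4 (rank 2300).

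**Figure D1:**
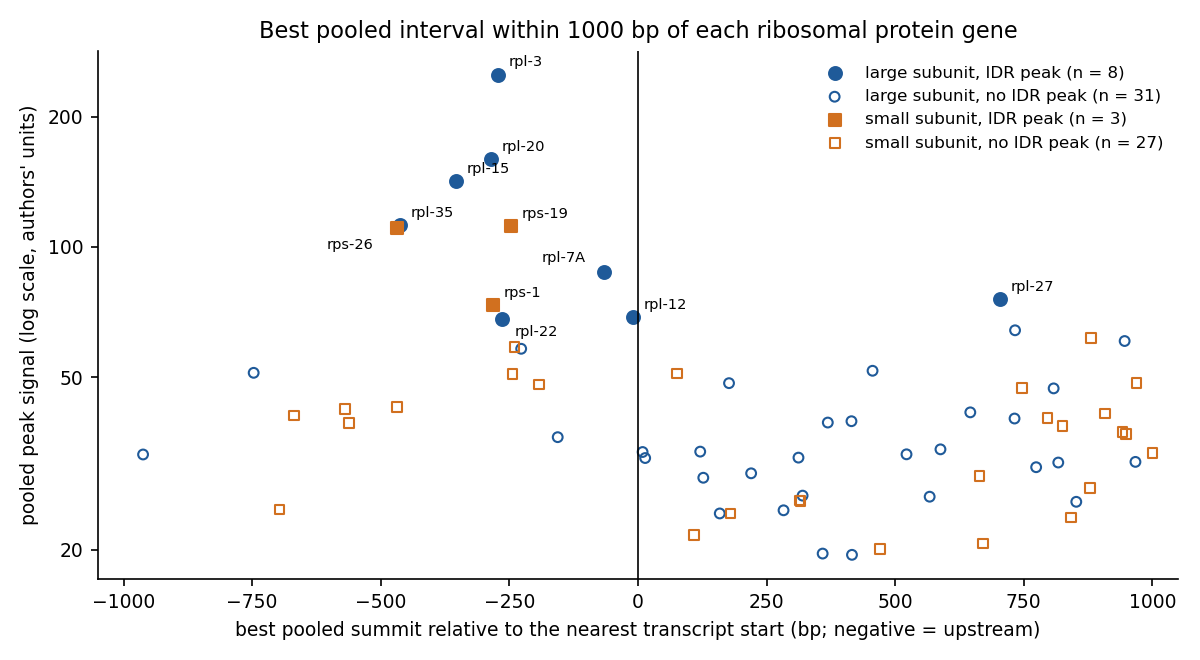
Pooled peak signal (log scale, authors' units) against the signed distance in bp from the best pooled summit to the nearest transcript start, for the 69 ribosomal protein genes with a pooled summit within 1000 bp. Filled points have an IDR peak, and 10 of these 11 lie upstream of the start, with signals of 68.2 to 249.7. Open points have signals of at most 64.2 and lie mostly downstream. The split by signal is set in advance, because the IDR peaks are the pooled intervals with the highest signal.

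At these 11 genes, the replicate summits lay close to the pooled ones. Some of this closeness is built in, because the pooled list was derived from both replicates. Only replicate intervals over the pooled summit were used. In all 11, both replicate lists held an interval over the pooled summit, and over the 22 replicate summits the median shift from the pooled summit was 7.5 bp and the largest was 61 bp, at rpl-22 in replicate 6. Intervals are mostly 404 bp wide, or 416 bp in replicate 6. Of the 10 peaks within 500 bp, 7 fell in a top-360 interval of replicate 5, 7 in a top-360 interval of replicate 6, and 6 in both. The 6 were rpl-3, rpl-7A, rpl-15, rpl-20, rpl-35 and rps-26. With no use of the IDR list, a top-360 summit of replicate 5 lay within 500 bp of 8 of the 78 genes (10.3%), against 0.881% of all protein-coding genes. A top-360 summit of replicate 6 lay within 500 bp of 8 of 78 (10.3%), against 0.831%. The further gene was rps-23 in replicate 5 and rps-16 in replicate 6.

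**Figure D2:**
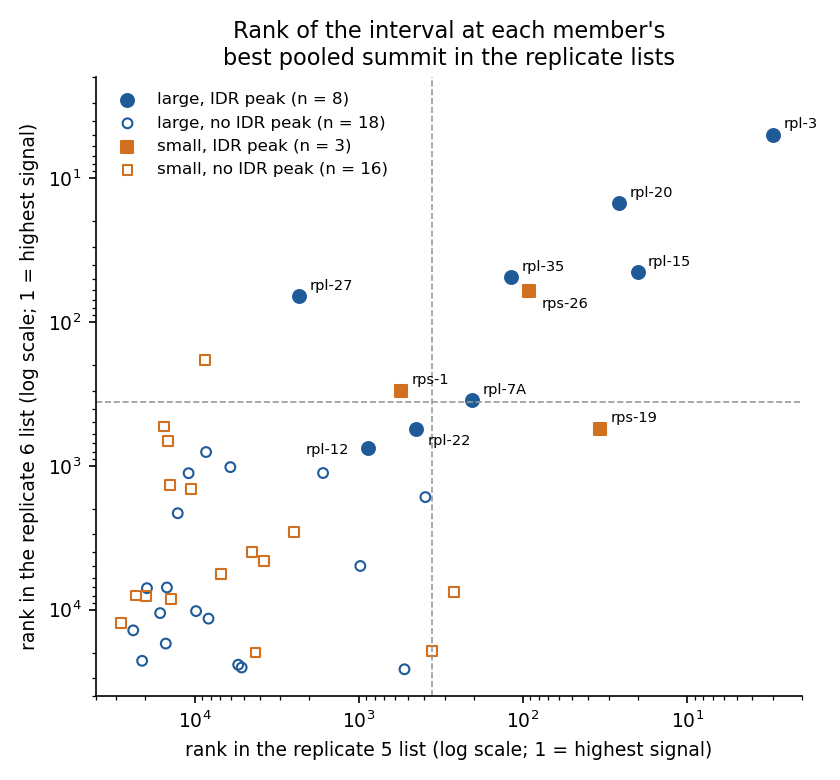
Rank in the replicate 6 list against rank in the replicate 5 list (both log scale, 1 is the highest signal, best ranks to the upper right) of the interval that holds each gene's best pooled summit, for the 45 ribosomal protein genes with such an interval in both lists. Dashed lines mark rank 360; 6 filled points lie inside both, and no open point does.

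The share with an IDR summit within 500 bp was 7 of 47 (14.9%) in the large subunit and 3 of 31 (9.68%) in the small subunit. The difference between these shares was not tested. The median distance of the summit from the start was 272 bp over the 7 large subunit genes and 282 bp over the 3 small subunit genes. Over all 10 it was 277 bp, with a range of 10 to 468 bp, against 200 bp over the 188 protein-coding genes with an IDR summit in this window. The median rank of the 10 peaks was 60, against 167 over the 188 genes. The median signal of the 10 was 111.1, against 81.5 over all 360 IDR peaks. The q-values in the IDR list ran from 0.00493 to 0.0194 at the 11 genes. They were higher in replicate 5, where no interval of the list had a q-value below 0.0236.

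**Figure D3:**
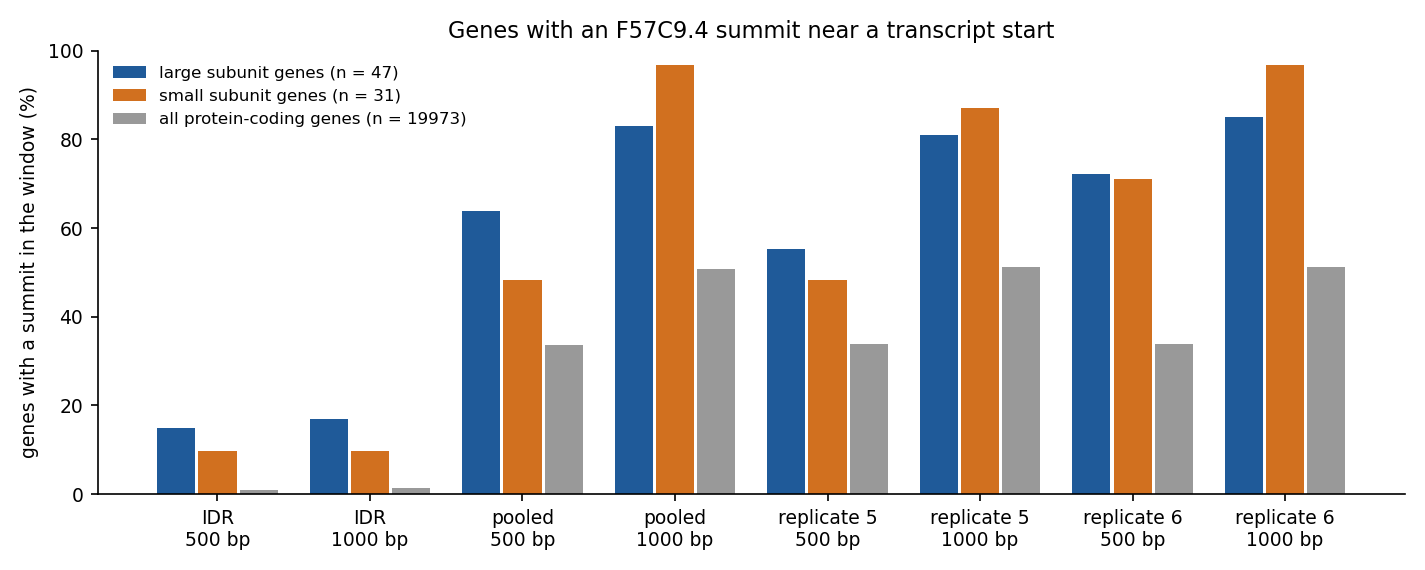
Percent of large subunit genes (n = 47), small subunit genes (n = 31) and all protein-coding genes (n = 19973) with a summit within 500 or 1000 bp of a transcript start in the IDR, pooled and replicate lists. Both subunits lie above all genes in every list; the small subunit lies above the large at 1000 bp in the pooled and both replicate lists (in the pooled list 83.0% of large and 96.8% of small subunit genes), and below it in the IDR list at both distances and in every list at 500 bp.

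The lists made before IDR each hold 30000 intervals, most of them with q-values above 0.05, so a summit in them can be far down the ranking. In the pooled list 45 of the 78 genes (57.7%) had a summit within 500 bp, against 33.6% of all protein-coding genes, and 69 of 78 (88.5%) had one within 1000 bp, against 50.8%. Within 500 bp the count was 41 of 78 (52.6%) in replicate 5, against 33.9%, and 56 of 78 (71.8%) in replicate 6, also against 33.9%. Summits of both replicates lay within 500 bp of 34 genes (43.6%), against 17.7% of all protein-coding genes. A further 7 genes had one in replicate 5 alone, 22 in replicate 6 alone and 15 in neither. Within 1000 bp, 65 of 78 (83.3%) had a summit in replicate 5, against 51.3%, and 70 of 78 (89.7%) in replicate 6, against 51.2%. By subunit, the shares within 1000 bp were 80.9% of large and 87.1% of small subunit genes in replicate 5, and 85.1% and 96.8% in replicate 6. Within 500 bp they were 55.3% of large and 48.4% of small subunit genes in replicate 5, and 72.3% and 71.0% in replicate 6. These differences between subunits were not tested. Among the genes with a pooled summit within 500 bp, 10 of 45 ribosomal protein genes (22.2%) had an IDR summit there, against 2.80% (188 of 6710) of protein-coding genes.

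The best pooled summit within 1000 bp lay upstream of the nearest start in 22 of 69 ribosomal protein genes (31.9%), against 45.5% of 10152 protein-coding genes. By place, 22 of the 69 lay upstream of the whole gene (31.9%), against 40.1% of the 10152, and 31 lay inside it (44.9%), against 55.7%. The other 16 lay beyond its end (23.2%), against 4.24%. Ribosomal protein genes are short, with a median span of 754 bp, against 2027 bp for all protein-coding genes, so that a window of 1000 bp often runs past the end of the gene. Leaving out the 11 genes with an IDR peak, 12 of the other 58 summits lay upstream (20.7%) and 46 downstream, against 44.9% upstream among 9879 protein-coding genes without an IDR peak within 1000 bp. Within 500 bp, 9 of 35 ribosomal protein genes without an IDR summit (25.7%) had their best pooled summit upstream, against 45.3% of 6522 protein-coding genes without one. Most ribosomal protein genes without an IDR peak therefore had their best summit on the other side of the start from the 10. For 24 of the 69 genes (34.8%), a start of another protein-coding gene lay nearer to the summit than the ribosomal protein gene's own start, against 13.7% of the 10152, and 9 of the 16 summits beyond the gene end were of this kind.

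By rank, the median of the best pooled intervals was 3386 of 30000 for the 69 ribosomal protein genes, against 12005 for the 10152 protein-coding genes with one, and it was 4589 for 39 large subunit genes and 3220 for 30 small subunit genes. The median signal was 39.3 over the 69, against 27.7 over the 10152. In the replicate lists the median rank of the best interval within 1000 bp was 6952 in replicate 5, against 11801, and 4724 in replicate 6, against 12004. The ribosomal protein genes thus stood higher than the middle gene in each list.

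The strongest of the genes without an IDR peak fell just below it. rpl-41.2, which encodes eL41, had a pooled signal of 64.2 (rank 409) with the summit 733 bp downstream of the start and beyond the gene. The lowest IDR peak among the ribosomal protein genes was that of rpl-22, with 68.2. rps-6, which encodes eS6, a target of S6 kinase, had 61.7 (rank 491) at 880 bp downstream, and rpl-38, which encodes eL38, had 60.7 (rank 530) at 946 bp downstream. These 3 summits lay beyond the end of the gene. The replicate 5 interval over the rps-6 summit ranked 264 and the replicate 6 interval ranked 7503, so it was unevenly placed between the replicates.

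Of the other genes without an IDR peak, a few had upstream summits at distances like those of the IDR peaks. rps-23 encodes uS12, a protein of the decoding centre. It had 58.7 in the pooled list (rank 605) and 45.5 in replicate 5 (rank 360), both 240 bp upstream, but the replicate 6 interval there had only 11.1 (rank 19430). rpl-24.2 had 58.2 (rank 626) at 227 bp upstream in the pooled list, with 32.6 in replicate 5 (rank 1651) and 24.3 in replicate 6 (rank 1123). rps-20, which encodes uS10, had 50.9 (rank 1103) at 244 bp upstream, with 29.9 in replicate 5 (rank 2481) and 19.8 in replicate 6 (rank 2893). rpl-24.2 and rps-20 had intervals of middling rank in both replicates, whereas rps-23 rested on replicate 5.

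rps-16, which encodes uS9, showed the opposite split between replicates. Its interval had 39.3 in replicate 6 (rank 144) and 51.1 in the pooled list (rank 1086), 76 bp downstream of the start, while no replicate 5 interval held that summit. rps-16 lies 109 bp downstream of fib-1, the gene of the nucleolar protein fibrillarin, on the same strand. The last 3 of the genes next in signal were rpl-31 with 51.8 in the pooled list (456 bp downstream), rpl-43 with 51.2 (747 bp upstream and 174 bp from the start of Y48B6A.1) and rps-15 with 48.6 (969 bp downstream). rpl-31 and rps-15 had their summits beyond the end of the gene. No list held a summit within 1000 bp of rpl-2, rpl-25.1 or rpl-36.A, and the pooled list also held none for rpl-18, rpl-21, rpl-24.1, rpl-41.1, rpl-42 and rps-10.

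Most of the IDR peaks at ribosomal protein genes lay at head-to-head gene pairs, an arrangement that most ribosomal protein genes share. The nearest upstream protein-coding neighbour was in head-to-head orientation with a gap of at most 1000 bp for 8 of the 10 genes with an IDR summit within 500 bp. The same held for 49 of all 78 ribosomal protein genes (62.8%) and for 4247 of 19973 protein-coding genes (21.3%). Among the 188 protein-coding genes with an IDR summit within 500 bp, it held for 70 (37.2%). These pairs include neighbours that overlap the gene on the opposite strand, taken as a gap of 0 bp, as at rpl-24.2 and rpl-37. Among ribosomal protein genes in such pairs, 8 of 49 (16.3%) had an IDR summit within 500 bp, and among the others 2 of 29 (6.90%). Over all protein-coding genes the shares were 1.65% in such pairs and 0.750% outside them. The difference between pairs and other genes was not tested. Genes on the same strand with an upstream neighbour within 500 bp, as in operons, made up 8 of the 78 ribosomal protein genes (10.3%), against 20.6% of all protein-coding genes, and none of the 10. Of the 188 protein-coding genes with an IDR summit within 500 bp, they made up 66 (35.1%).

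A summit between divergent starts cannot be given to 1 gene by position alone. At rpl-20 the summit was 286 bp from the start of rpl-20 and 176 bp from that of Y17G9B.5. At rpl-22 it was 264 bp from rpl-22 and 173 bp from ify-1, which encodes securin. At rps-19 it was 247 bp from rps-19 and 198 bp from hsr-9, which encodes a relative of the DNA damage protein 53BP1. At rps-26 it was 468 bp from rps-26, 11 bp inside tmem-107 and 50 bp from the start of the snoRNA gene F39B2.14. In these 4 the neighbour's start was the nearer one.

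In the other 4 pairs the ribosomal protein gene's start was the nearer one. At rpl-7A the distances were 66 bp from rpl-7A and 188 bp from set-21, and at rpl-12 they were 10 bp from rpl-12 and 383 bp from lin-54, which encodes the DNA-binding subunit of the DREAM complex. At rpl-15 they were 354 bp from rpl-15 and 460 bp from K11H12.8, and at rps-1 they were 282 bp from rps-1 and 486 bp from ifet-1, which encodes a partner of the cap-binding protein eIF4E. rpl-3 and rpl-35 had no other protein-coding start within 1000 bp of the summit, so these 2 peaks have the ribosomal protein gene as their only coding neighbour in that distance. With each peak counted for its nearest protein-coding gene alone, 6 of the 78 genes had one within 500 bp. No share over all protein-coding genes is given under that rule, so the 6 have no background beside them.

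**Figure D4:**
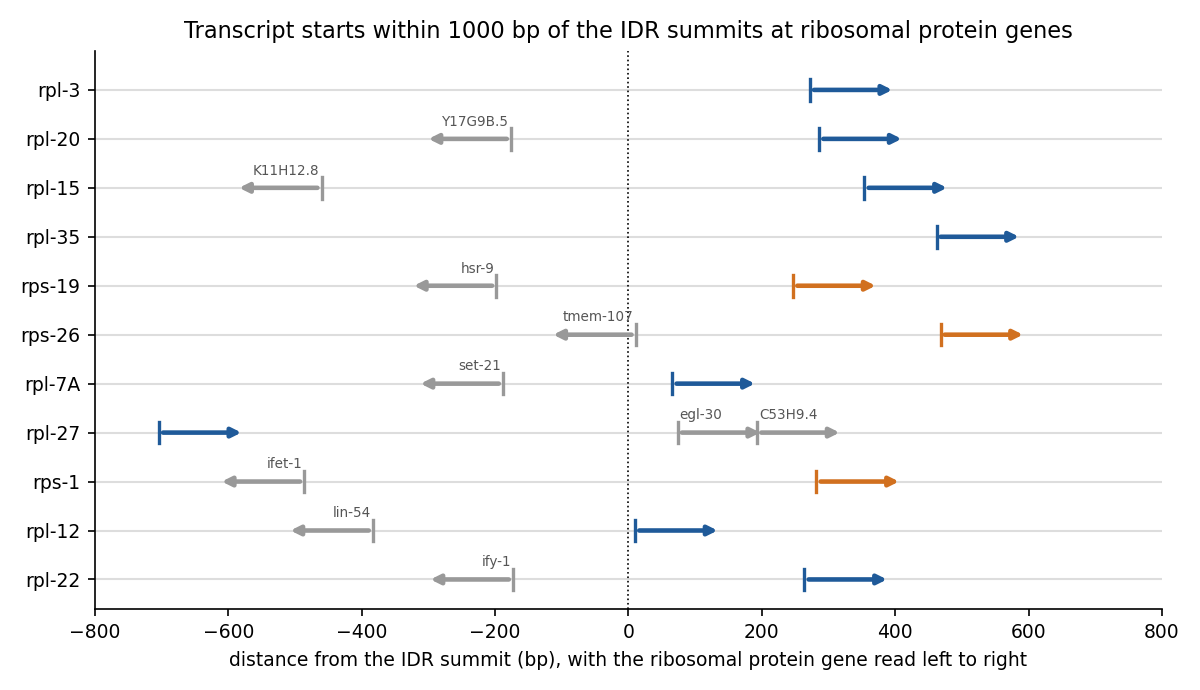
Transcript starts of protein-coding genes (ticks, with arrows in the direction of transcription) by distance in bp from the IDR summit (dotted line), for the 11 ribosomal protein genes with an IDR summit within 1000 bp, in order of signal and with the ribosomal protein gene (blue, large subunit; orange, small subunit) read left to right. In 8 rows a neighbour (grey) points the other way; rpl-3 and rpl-35 stand alone, and at rpl-27 the summit lies before egl-30.

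Genes with and without a nested snoRNA gene had IDR peaks in similar shares, with few genes on either side. The 78 genes hold 19 nested snoRNA genes in 13 hosts, 8 of the large and 5 of the small subunit. An IDR summit lay within 500 bp of the start of 2 of the 13 hosts (15.4%, rpl-7A and rpl-15) and of 8 of the 65 other ribosomal protein genes (12.3%), where the share over all protein-coding genes was 0.941%. At rpl-15, the snoRNA genes K11H12.12 and K11H12.13 lie in the gene body and the IDR summit lies upstream of it. At rpl-7A the summit was 348 bp from the start of the snoRNA gene Y24D9A.9, farther than from the rpl-7A start.

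Of the 19 nested snoRNA genes, 1 had an IDR summit within 500 bp (5.26%), against 46 of 346 snoRNA genes in the genome (13.3%). A pooled summit lay within 500 bp of 13 of the 19 (68.4%), against 214 of 346 (61.8%). Of the 19, 3 had one within 100 bp. R151.12, inside rpl-6 (eL6 of the large subunit), had a pooled summit at 16 bp with a signal of 34.1 (rank 5892), and B0041.9, inside rpl-4, had one at 94 bp with 21.6 (rank 23103). K11H12.12, inside rpl-15, had one at 28 bp with 25.5 (rank 15454). These 3 ranks are far below those of the IDR peaks.

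Of the other hosts with a pooled summit within 1000 bp, rps-23 had the highest signal, the 58.7 (rank 605) at 240 bp upstream given above. No pooled summit lay within 500 bp of the start of its nested snoRNA gene F28D1.13. The next was rps-12, which encodes eS12, with 48.2 (rank 1380) at 192 bp upstream, 101 bp from the start of ska-3 and 272 bp from that of its own snoRNA gene F54E7.10. Its replicate 6 interval ranked 534 and its replicate 5 interval 15305. Best pooled signals within 1000 bp at the remaining hosts not yet given were 31.9 at rpl-26, 29.6 at rps-29, 26.5 at rpl-7, 25.9 at rps-4, 25.8 at rpl-4 and 24.8 at rps-13. Over the whole pooled list the median signal was 25.8.

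The ribosomal protein genes are spread unevenly over the chromosomes. Chromosome I holds 23 of the 78 (29.5%), against 14.4% of all protein-coding genes, and chromosome X holds 2 (2.56%), against 13.7%. Of the 10 genes with an IDR summit within 500 bp, 4 are among the 17 genes on IV and 3 among the 18 on III. Another 2 are among the 23 on I and 1 among the 10 on II, and none is among the 8 on V or the 2 on X. No share over all protein-coding genes is given by chromosome, so these small counts have no background beside them.

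Other gene groups of protein synthesis had IDR summits at smaller shares of their genes. Within 500 bp, 2 of 70 mitochondrial ribosomal protein genes (mrpl-41 and mrps-35), 2 of 41 genes of translation factors (eif-3.C and eef-2), 1 of 32 tRNA synthetase genes (ears-2) and 2 of 23 genes of ribosome biogenesis or RNA polymerase I (pro-1 and rpac-19) had one. None of 8 genes listed for ribosomal proteins with other symbols (rla-0, rla-1, rla-2, ubl-1, ubq-2, rack-1, rpa-1 and rpa-2) had one, although 5 of the 8 had a pooled summit within 500 bp. The rla genes encode the stalk proteins, while rpa-1 and rpa-2 are named for replication protein A and are not ribosomal. The shares were 2.86%, 4.88%, 3.12% and 8.70% in the groups with any, against 12.8% of the rpl- and rps- genes and 0.941% of all protein-coding genes. In the same order, pooled summits lay within 500 bp of 51.4%, 43.9%, 40.6% and 78.3% of their genes. The pooled shares were 57.7% of the rpl- and rps- genes and 33.6% of all protein-coding genes. Median ranks of their best pooled intervals within 1000 bp were 8305, 9553, 7346 and 6884, against 3386 and 12005. A raised pooled share was thus not particular to the rpl- and rps- genes. The lists are small and the differences between them were not tested.

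The short strings shown in capitals were then counted in every window, on both strands. Within 50 bp of the summit, TACGGT was present at 5 of the 11 IDR peaks of ribosomal protein genes (45.5%), at 13 of the other 349 IDR peaks (3.72%) and at 3.08% of the 30000 pooled summits. AGTGTA was present at 5 of 11 (45.5%), at 17 of 349 (4.87%) and at 3.32% of pooled summits. AGCGTG was present at 4 of 11 (36.4%), at 26 of 349 (7.45%) and at 2.11%. Both TACGGT and AGTGTA were present at 41 of the 30000 pooled summits, of which 5 are IDR peaks and 4 are the peaks of rpl-3, rpl-15, rpl-20 and rps-1. The strings were picked from these 11 windows, so their shares there describe the choice.

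The upstream sequences of the 67 ribosomal protein genes without an IDR peak were not used in that choice. In the 500 bp before the start, TACGGT was present in 31 of the 67 (46.3%), against 13.9% of all protein-coding genes. It was present in 21 of 39 large subunit genes (53.8%) and in 10 of 28 small subunit genes (35.7%), and its 32 matches lay at a median of 292 bp before the start. AGTGTA was present in 4 of the 67 (5.97%), against 17.7% of all protein-coding genes, and AGCGTG in 7 (10.4%), against 7.99%. Genes that face each other share upstream bases, so the same site can count for both. This was so for TACGGT at rpl-24.1 and rps-10 and for AGTGTA at rpl-36 and rps-14. A pooled summit lay upstream within 500 bp at 5 of the 31 genes with TACGGT and without an IDR peak, and at 5 of the 36 with neither TACGGT nor an IDR peak.

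A further 7 strings, taken from a general list of promoter elements and simple repeats, were counted in the same way. The string TTTTTT was present at 2 of the 11 peaks (18.2%), against 19.5% of the other 349 IDR peaks. The string TTTCAG, which ends like a C. elegans splice acceptor, was also present at 2 of 11 (18.2%), against 9.74%, and GAGAGA at 2 of 11 (18.2%), against 12.6%. The TATA-like string TATAAA was present at none of the 11, against 8.60% of the other IDR peaks. The same was true of the string GGGCGG, against 5.44%, of the E-box CACGTG, against 5.16%, and of the longer string CTGCGTCT, against 3.72%. None of the 7 was present at more than 2 of the 11 peaks.

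In promoters, taken as 250 bp before to 50 bp after the start, the string TTTTTT was present in 92.3% of the 78 ribosomal protein genes, against 80.1% of all protein-coding genes, and TTTCAG was present in 69.2%, against 51.7%. The string TATAAA was present in 26.9%, against 37.9%, and GAGAGA in 21.8%, against 21.8%. The E-box CACGTG was present in 1.28%, against 5.82%, the string GGGCGG in 3.85%, against 7.83%, and the longer string CTGCGTCT in none of the 78, against 3.54%. The median GC content within 50 bp of the summit was 48.5% at the 11 peaks, 45.5% at the other IDR peaks and 41.6% at the pooled summits.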

How the data were processed

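ChIP-seq peak lists of tagged F57C9.4 were used for the 2 replicates, for both pooled and after IDR. Per the file headers and accompanying text, the lists are in narrowPeak format on build ce11 (and ce10), and the lists before IDR were made from alignments and, for each build, from 1 more file of a kind the text does not name. The sources used here name no aligner, caller or version. The deposited signal of each interval is the authors' own value, and intervals were ranked by it within a list only. The deposited −log10 q-value was converted to a q-value and used to describe intervals. The deposited summit offset, another value of the file, was added to the interval start. The deposited lists give no read counts here, so the depth of the libraries is unknown and the counting error of the signals cannot be estimated.

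Genes, transcript starts and neighbours came from Ensembl release 115 (WBcel235, the assembly of ce11); product names and sequence came from RefSeq. A summit was assigned to every gene with a transcript start within 500 or 1000 bp, and the interval with the highest signal was taken as best. With 1 group and no reference condition there is no contrast, so no test was run, and counts of ribosomal protein genes were set beside the share over all protein-coding genes, or over all summits or snoRNA genes where those were counted. The members, gene lists and strings were chosen with earlier results of these data known. Genes named are those with an IDR summit within 1000 bp, those with an interval among the 360 best of a list, the 8 next by pooled signal, and hosts of snoRNA genes with a pooled summit. Gene symbols were checked against RefSeq product names, and the summit assignment was tested on simulated summits. Python 3.11.15 and matplotlib 3.10.9 were used. Alternatives covered the window, the start, the replicate, the overlap rule, the q-value and the build.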

Additional observations from a re-analysis of the deposited data

How the results depend on the processing

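Of 64 alternatives, 45 left a count within 1.5 times, or the median distance within the spread of the replicates (SD 83.8 bp, n = 2), and 19 moved it. That SD comes from the medians without replicate 5 (408 bp) and without replicate 6 (527 bp). Both are also among the 45, and their staying within their own spread says little. Giving each peak only to its nearest protein-coding gene left 6 ribosomal protein genes with an IDR summit within 500 bp, 6 within 1000 bp and 1 of the small subunit. A window of 250 bp left 3 genes (2 large, 1 small) by the IDR list, 22 by the pooled list, 22 by replicate 5 and 23 by replicate 6. IDR peaks among the best of both replicates left 6 genes within 500 bp, and the stronger 180 IDR peaks left 7 within 1000 bp. Keeping only intervals with a q-value under 0.05 left 13 genes in the pooled list within 500 bp and 17 within 1000 bp, 11 in replicate 5, 19 in replicate 6 and 10 in both. The median distance of 468 bp became 354 bp with the summit nearest to a start as best, 564 bp with the 5′-most start of each gene and 279 bp in a window of 500 bp. The cause of these moves was not tested, beyond that a narrower window or a stricter threshold admits fewer summits. No share over all protein-coding genes is given for these counts, so they cannot be set against a background.

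Leaving out replicate 5 or replicate 6 and using the 360 best intervals of the other, the count within 500 bp was 8 both times (5 large, 3 small), and within 1000 bp it was 9 and 8. Of the 11 IDR peaks within 1000 bp, 10 matched a ce10 IDR peak on chromosome and signal within 0.1%; the exception was rpl-3, with 249.7 on ce11, where the closest ce10 value on the chromosome was 248.4. No paired analysis was possible because the labels describe 1 group, with no other to pair it with. Depth is unknown, and 2 replicates give only a rough estimate of how far a rank varies.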
